A study of Mus musculus with 6 samples.

Results

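The genes of the BMP and TGF-beta system, 40 in number, were examined through the accessible chromatin intervals that lay closest to them. An interval belonged to the set when its strongest summit had one of these 40 genes as the nearest protein-coding transcription start site (TSS), at most 50 kb away. By this rule 460 of 190365 intervals were members, with 207 of 82885 intervals from the parent list and 253 of 107480 from the deletion list. Members were found for 39 of the genes in the parent list and for each of the 40 genes in the deletion list, and they fell into 350 loci once overlapping intervals of both lists were joined.

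The intervals came from ATAC-seq, which uses a transposase to mark open chromatin. The cells were mouse neural stem/progenitor cells (NSPCs) that had been differentiated from F1 hybrid embryonic stem cells of strain 129S1/Cast and grown on coated plates in N2B27 medium with EGF and bFGF. Every culture carried mCherry on the 129 copy of *Sox2*, including the 3 cultures of the parent group, which had no enhancer deletion. The 3 cultures of the ΔSRR2–18 group also lacked the SRR2–18 enhancer cluster downstream of *Sox2* on both alleles. Each group was a single clone, 5B for the parent and 47D for the deletion, so that a clone and its genotype cannot be told apart. The labels give 30000 cells and a depth of 50 to 60 M reads per culture, while the methods of the study give a wider range of cell numbers. The deposited peak lists pool the 3 cultures of a genotype. The spread between cultures is therefore unknown for every value below, and differences were described without a test. In bulk chromatin, an interval that is open in fewer cells and one that is less open in each cell cannot be told apart.

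Bone morphogenetic proteins (BMPs), TGF-betas and activins are secreted dimers. They bring together type I and type II receptor kinases, which phosphorylate receptor SMAD proteins; these pair with SMAD4 and enter the nucleus. The SMADs of the BMP branch switch on the *Id* genes, whose products bind basic helix-loop-helix proteins and keep them from DNA, and in neural progenitors this branch is known to restrain neuronal differentiation and to favour astrocytes. SMAD6 and SMAD7 dampen the signal inside the cell, and noggin, gremlin, chordin and follistatin trap the ligands outside it.

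The labels and depth were checked first. Between the cut sites of the deletion on chromosome 3 (bases 34653746 and 34670054), the parent list held 4 intervals and the ΔSRR2–18 list held 0. The mean pileup over the genome, a measure of depth, was 38.8 reads for parent and 19.7 reads for ΔSRR2–18 cells, so the parent data were 1.98 times deeper. In what follows, the level of an interval is its highest summit pileup divided by the mean pileup of its own list, and the TSS level of a gene is the level of the strongest interval whose span reached within 1 kb of one of its start sites. Intervals reached the start sites of 11 of 11 NSPC markers in both lists. Their levels ran from 47.2 to 158 in parent and from 12.1 to 102 in ΔSRR2–18 cells. Each of the 11 had its lower level in the deletion, but the difference was small for *Vim*, with 105 and 102. These levels were not centred, and the median log2 ratio of all loci present in both lists was itself −0.24. Of the 5 pluripotency markers, *Pou5f1*, *Nanog*, *Zfp42* and *Dppa3* had none in either list. *Esrrb* was reached in both, with levels of 61.0 in parent and 23.1 in ΔSRR2–18 cells. Start sites with an interval numbered 1 of 4 epithelial markers in parent and 3 of 4 in ΔSRR2–18 cells, 4 and 5 of 5 mesenchymal markers, 3 and 4 of 5 neuronal markers, 2 and 1 of 5 glial markers, and 0 and 1 of 4 blood and endothelial markers. Among the epithelial markers, *Epcam* and *Krt8* were reached only in ΔSRR2–18 cells, with levels of 16.7 and 43.1, and *Cdh1* had levels of 4.07 and 19.5. The part of these shifts in the values below was not tested. On chromosome 12 from 75 Mb to its end, the 903 shared loci had a median log2 ratio of 0.78, whereas the medians of the other chromosomes apart from Y lay between −0.11 and 0.12. *Tgfb3* lies in this segment, and *Id2*, at the other end of the chromosome, does not.

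To show what these intervals look like as DNA, the sequences around the summits of 3 strong genotype-specific intervals from each list are printed first, with 100 bases on each side of the summit, on the plus strand of mm10. An interval was called specific, that is parent-only or deletion-only, when it overlapped no interval of the main (conservative) list of the other genotype. The intervals printed here were among the 4 strongest of each genotype that also overlapped nothing in the longer, less strict (optimal) list of the other genotype. Capitals mark exact matches on either strand to the motifs searched: the AP-1 motif TGANTCA, the SOX motif ACAATG, the E-box CAGCTG, the TEAD motif GGAATG, the SMAD GC element GGCGCC and the SMAD palindrome GTCTAGAC. No motif contains another. A match is only a string of letters and was not taken as a binding site.
*Tgfbr2* intron, parent only, chr9:116138820-116139020 (+): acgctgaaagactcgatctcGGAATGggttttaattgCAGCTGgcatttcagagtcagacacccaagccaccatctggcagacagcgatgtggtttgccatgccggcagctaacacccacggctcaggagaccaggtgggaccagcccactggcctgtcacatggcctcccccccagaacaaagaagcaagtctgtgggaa
*Id3* upstream, parent only, chr4:136104879-136105079 (+): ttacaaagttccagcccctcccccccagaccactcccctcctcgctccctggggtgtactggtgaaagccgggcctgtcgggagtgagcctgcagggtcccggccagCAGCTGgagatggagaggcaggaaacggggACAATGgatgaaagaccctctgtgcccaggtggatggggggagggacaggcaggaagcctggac
*Tgfbr2* upstream, parent only, chr9:116213310-116213510 (+): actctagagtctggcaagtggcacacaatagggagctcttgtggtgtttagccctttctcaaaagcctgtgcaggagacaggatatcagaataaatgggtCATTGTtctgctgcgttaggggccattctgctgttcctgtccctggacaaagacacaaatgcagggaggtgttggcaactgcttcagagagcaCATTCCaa
*Bmp4* upstream, ΔSRR2–18 only, chr14:46436582-46436782 (+): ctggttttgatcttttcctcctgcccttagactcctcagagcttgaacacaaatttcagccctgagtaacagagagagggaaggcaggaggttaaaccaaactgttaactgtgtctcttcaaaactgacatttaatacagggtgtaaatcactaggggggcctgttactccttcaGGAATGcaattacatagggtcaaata
*Tgfb3* downstream, first, ΔSRR2–18 only, chr12:86037449-86037649 (+): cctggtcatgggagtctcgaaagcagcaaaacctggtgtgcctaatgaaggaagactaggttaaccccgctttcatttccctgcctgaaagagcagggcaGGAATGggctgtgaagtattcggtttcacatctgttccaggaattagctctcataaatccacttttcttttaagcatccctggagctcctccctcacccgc
*Tgfb3* downstream, second, ΔSRR2–18 only, chr12:86047436-86047636 (+): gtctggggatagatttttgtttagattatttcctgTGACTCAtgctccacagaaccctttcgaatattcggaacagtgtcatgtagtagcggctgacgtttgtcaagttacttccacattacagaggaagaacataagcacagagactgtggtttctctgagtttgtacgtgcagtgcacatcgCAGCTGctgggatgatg

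The same is shown for the 3 loci of *Id* genes that were among the 5 most raised and 5 most lowered shared loci, because 2 of them had lower and 1 had higher levels in the deletion cells. The 30-base windows below them hold the SMAD GC element in the promoters of *Id2* and *Id4* (RefSeq, GRCm38.p6, read along the strand of the gene). The element starts 231 bp before the start site of *Id2* and 148 bp before that of *Id4*. It was present in 11 of the 35 promoters of the set that the RefSeq table holds (29 genes), and in 11.9% of all 32851 promoters of the same length. The promoter of *Id3* held no match, and that of *Id1* was not among those searched. The *Id1* interval with its summit 1.05 kb upstream of the start did hold the element.
*Id3* upstream, lower in ΔSRR2–18, chr4:136135075-136135275 (+): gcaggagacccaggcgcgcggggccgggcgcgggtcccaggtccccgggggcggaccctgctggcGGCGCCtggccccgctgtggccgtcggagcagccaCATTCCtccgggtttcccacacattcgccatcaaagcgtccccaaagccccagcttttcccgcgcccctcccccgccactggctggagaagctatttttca
*Id1* upstream, lower in ΔSRR2–18, chr2:152723964-152724164 (+): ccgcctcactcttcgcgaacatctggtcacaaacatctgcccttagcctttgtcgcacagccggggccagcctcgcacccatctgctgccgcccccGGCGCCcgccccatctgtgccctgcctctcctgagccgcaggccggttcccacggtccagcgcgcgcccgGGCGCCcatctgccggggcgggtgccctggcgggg
*Id3* upstream, higher in ΔSRR2–18, chr4:136117117-136117317 (+): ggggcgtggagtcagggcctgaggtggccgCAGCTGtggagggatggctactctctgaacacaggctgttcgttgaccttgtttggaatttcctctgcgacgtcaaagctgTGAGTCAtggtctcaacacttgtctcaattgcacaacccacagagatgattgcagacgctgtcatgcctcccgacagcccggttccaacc
*Id2* promoter, chr12:25096306-25096335 (-): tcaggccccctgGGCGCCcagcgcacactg
*Id4* promoter, chr13:48260956-48260985 (+): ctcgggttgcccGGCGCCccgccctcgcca

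Across the set, accessible intervals were gained and lost at about the rate seen at other genes. Of the 207 parent intervals, 100 (48.3%) did not overlap the ΔSRR2–18 list, and the same was true of 45.0% of all parent intervals within 50 kb of a gene. Of the 253 ΔSRR2–18 intervals, 145 (57.3%) did not overlap the parent list, beside 53.0% of all ΔSRR2–18 intervals near genes. All but 4 of the parent-only and 5 of the deletion-only intervals were also missing from the less strict list of the other genotype, which leaves 96 and 140. The order of these counts depended on how many intervals the lists were allowed to hold. When both lists were cut to the same number by fold enrichment, the set had 207 parent and 169 ΔSRR2–18 intervals, and 135 parent-only against 98 deletion-only ones. Without distal chromosome 12 the counts were 98 and 141.

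Counted by gene, 23 of the 40 genes had more intervals in the ΔSRR2–18 list, 12 had fewer and 5 had the same number. The shares, 57.5% and 30%, stood beside 45.7% and 27.8% of the 17637 genes with an interval. Both shares were higher in the set, so equal numbers were less common there. The genes were not matched for their number of intervals. Both kinds of specific interval were present at 31 genes, and only *Chrd* and *Acvr2b* had neither. The BMP ligand genes and the *Id* genes marked the ends of the range: 78.6% of the ΔSRR2–18 intervals at BMP ligand genes were deletion-only, but only 36.7% of those at *Id* genes. The share over all ΔSRR2–18 intervals near genes was 53.0%.

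**Figure D1:**
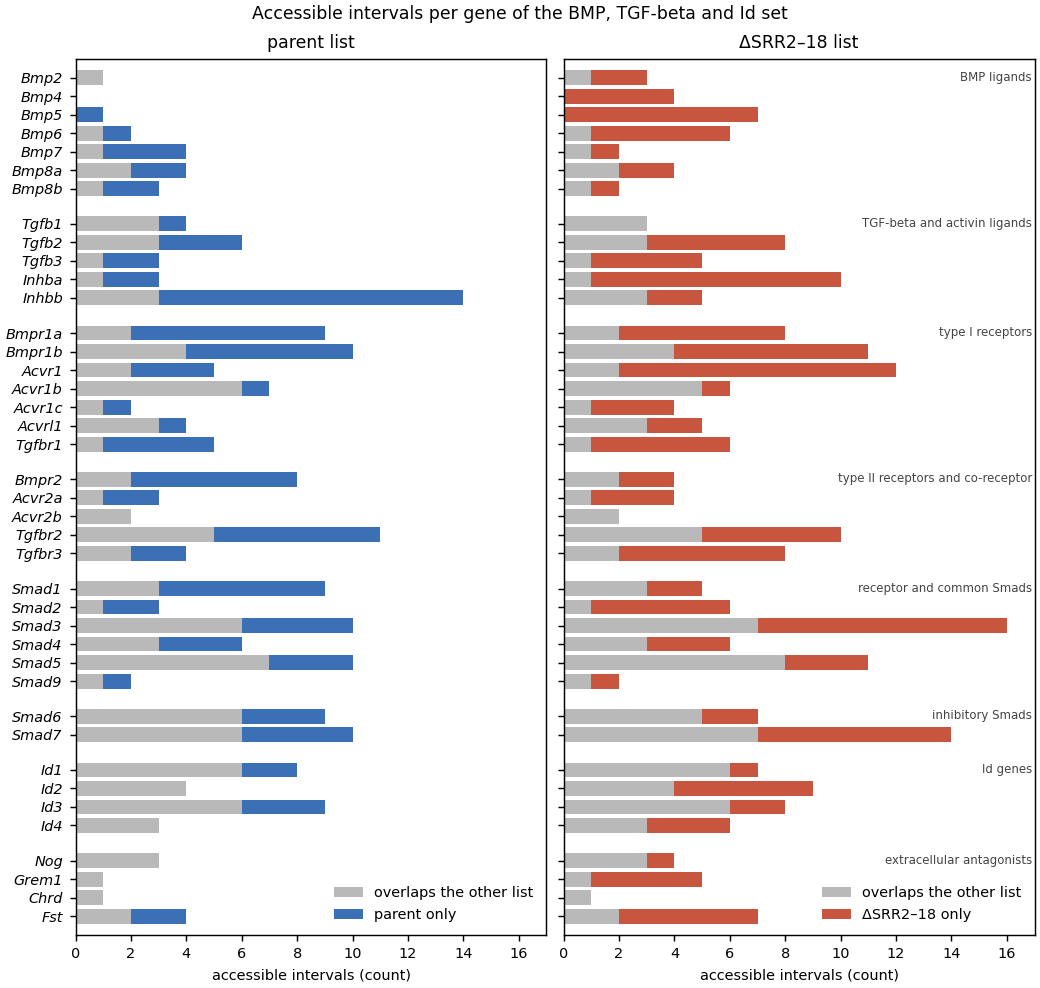
Number of accessible intervals (x axis, count) assigned to each of the 40 genes (y axis, grouped by role) in the parent list (left) and the ΔSRR2–18 list (right), with intervals that overlap the other list in grey and those in 1 list only in colour. *Bmp4* has 0 parent and 4 ΔSRR2–18 intervals, *Inhbb* has 14 and 5, and the 4 *Id* genes are mostly grey.

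Loci present in both lists could be compared by their levels. The median log2 ratio of level, ΔSRR2–18 over parent, was −0.24 over all 39072 shared loci, and every log2 ratio below is given relative to this median. For the 105 shared loci of the set the median was 0.12, with quartiles of −0.53 and 0.66. Loci near any gene had a median of −0.06 (quartiles −0.48 and 0.52). At least 2-fold higher in ΔSRR2–18 cells were 14 of the 105 loci (13.3%), against a background of 15.4%, and at least 2-fold lower were 11 (10.5%), against 10.2%. The set as a whole was therefore near the background in both directions. Scaled by fold enrichment over the local background instead of pileup, 5 loci were higher and 7 lower, and the median changed sign to −0.06. Of the 25 loci past 2-fold, 23 had the same sign on both scales and 8 passed 2-fold on both.

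The 5 loci with the largest gains belonged to different steps of the pathway. The TSS locus of *Bmp6* rose from a level of 7.11 in parent to 55.7 in ΔSRR2–18 cells, a log2 difference of 3.21 (95% counting interval 3.02 to 3.40). Its summits, however, were 983 bp apart, and the parent and deletion intervals met by only a few bases. An intronic locus of *Smad3*, 41.7 kb from the start, went from 7.70 to 57.4 (log2 3.14, 2.95 to 3.33). In an intron of the co-receptor gene *Tgfbr3* the level went from 6.28 to 30.2 (2.50, 2.28 to 2.72), and at a locus 26.3 kb upstream of *Id3* from 22.2 to 106 (2.49, 2.38 to 2.61). An intronic locus of *Tgfb1* completed the group, with 14.3 and 51.9 (2.10, 1.95 to 2.25). Each of these 5 was also higher by fold enrichment, by 0.55 to 1.42 on the log2 scale. These intervals cover counting error only.

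The 5 loci with the largest losses included a pair from *Id* genes. A locus 4.45 kb upstream of *Smad5* fell from 52.3 to 11.5 (log2 −1.94, −2.15 to −1.74), and one 8.32 kb upstream of *Id3* fell from 74.3 to 16.6 (−1.92, −2.09 to −1.76). The locus 12.2 kb upstream of *Id1* had 41.4 and 9.87 (−1.83, −2.05 to −1.61), and a locus 17.3 kb downstream of the *Inhbb* start had 32.6 and 8.24 (−1.74, −1.99 to −1.51), with summits 372 bp apart. The promoter of *Acvr1c*, a type I receptor for activin-related ligands also known as ALK7, fell from 74.7 to 19.5 (−1.70, −1.86 to −1.55). By fold enrichment these losses ranged from −0.50 to −1.84.

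**Figure D2:**
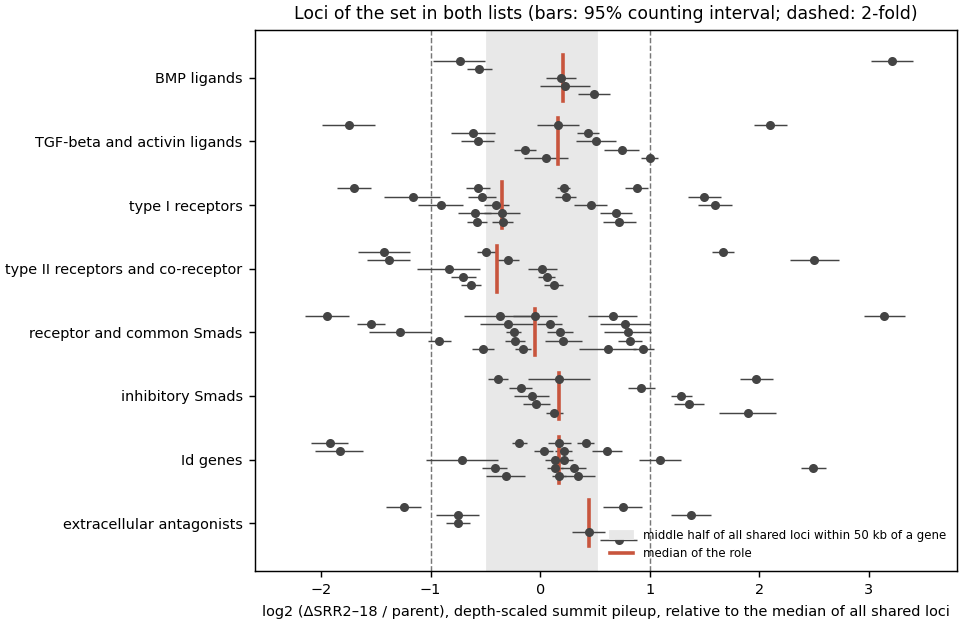
Log2 ratio of depth-scaled summit pileup, ΔSRR2–18 over parent (x axis, relative to the median of all shared loci), for each of the 105 loci of the set in both lists, by role of the gene (y axis), with 95% counting intervals. Grey shading spans −0.48 to 0.52, the range between the quartiles of all shared loci near genes; red bars are role medians, from −0.39 for type II receptors and co-receptor to 0.44 for antagonists; 14 loci lie to the right of the upper 2-fold line and 11 to the left of the lower one.

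Among the BMP ligand genes, 9 of 15 parent intervals (60%) and 22 of 28 ΔSRR2–18 intervals (78.6%) were specific to their list. The shares over all intervals near genes were 45.0% and 53.0%. *Bmp4*, which drives dorsal fates in the neural tube, had no interval in the parent list and 4 in the ΔSRR2–18 list. Of the 17637 genes with an interval, 198 (1.12%) had at least 4 in the ΔSRR2–18 list and 0 in the parent list. The strongest of the 4 lay 46.0 kb upstream, 173 bp from the start of the non-coding gene *Gm15221*, and its level of 90.1 exceeded that of 90.1% of the parent list. The others had levels of 20.7 at 17.9 kb upstream, 18.4 at 1.67 kb downstream of the start and 58.6 at 3.12 kb downstream, the last of them 90 bp from the start of the antisense gene *Gm15222*. No interval reached the *Bmp4* start itself within 1 kb in either list, and *Bmp8b* also had none at its start. The 97 shared loci within 5 Mb of *Bmp4* had a median log2 ratio of −0.23, the lowest for any gene of the set, while the number of intervals in the same window was 204 in the parent list and 314 in the ΔSRR2–18 list. The part of this regional difference in number in the *Bmp4* counts was not tested.

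*Bmp5* and *Bmp6* followed a like pattern with lower levels. *Bmp5* had 7 intervals in the ΔSRR2–18 list, at levels from 7.02 to 16.4, and 1 in the parent list at 5.28, and these did not overlap. At its start site, in the 5′ UTR, only the ΔSRR2–18 list had an interval, with a level of 7.53, which was among the weaker ones of that list. *Bmp6* had 6 against 2. Besides its TSS interval, ΔSRR2–18 cells had 3 intervals in the first 6 kb of the gene, with levels of 20.0, 52.0 and 27.7, and the parent list had none there. By fold enrichment these 3 ranked low, within the top 99.8%, 80.6% and 93.5% of the list respectively. *Bmp2* had 3 intervals against 1, with TSS levels of 27.3 in parent and 32.5 in ΔSRR2–18 cells. By fold enrichment, however, its TSS locus was lower in ΔSRR2–18 cells, at −1.24 on the log2 scale. In the other direction, *Bmp7* had 4 parent and 2 ΔSRR2–18 intervals, with TSS levels of 34.7 and 33.5. *Bmp8a* had 4 in each list, and its TSS level was 69.6 in parent and 40.2 in ΔSRR2–18 cells, while *Bmp8b* had 3 and 2 intervals.

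The activin genes *Inhba* and *Inhbb*, which encode the beta-A and beta-B subunits of activins, differed in opposite directions. *Inhbb* had 14 parent intervals, 11 of them parent-only, and 5 ΔSRR2–18 intervals, 2 of them deletion-only. Across all genes with an interval, 129 (0.731%) had 11 or more parent-only intervals. The parent-only intervals of *Inhbb* lay on both sides of the gene, and the strongest, 33.3 kb downstream of the start, had a level of 134, above 98.6% of the ΔSRR2–18 list. This interval did overlap the less strict ΔSRR2–18 list, unlike the next one, 31.7 kb upstream with a level of 72.1. The *Inhbb* TSS level was 42.3 in parent and 24.2 in ΔSRR2–18 cells. *Inhba* had 3 parent and 10 ΔSRR2–18 intervals, 9 of them deletion-only. The levels of these 9, from 6.0 to 25.6, were low beside those of the shared *Inhba* TSS locus, 55.2 in parent and 63.4 in ΔSRR2–18 cells. The 5 Mb on each side of *Inhba* held 238 other intervals in the parent list and 418 in the ΔSRR2–18 list. Around *Inhbb* these numbers were 165 and 227. The part of these regional differences in the counts of the 2 genes was not tested.

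**Figure D3:**
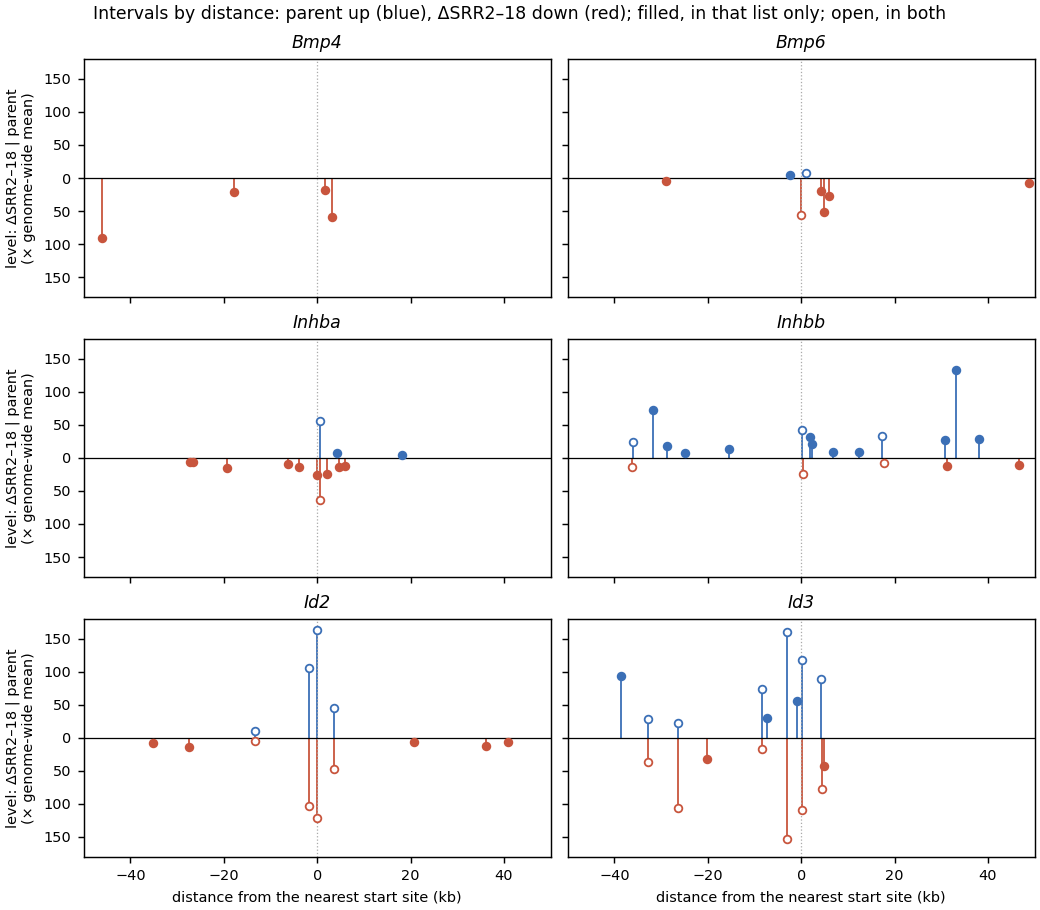
Level of each interval (y axis, multiples of the genome-wide mean pileup; parent upwards in blue, ΔSRR2–18 downwards in red) against its distance from the nearest start site of the gene (x axis, kb) for *Bmp4*, *Bmp6*, *Inhba*, *Inhbb*, *Id2* and *Id3*. Filled points are in that list only and open points in both; *Bmp4* has points only below the line, *Inhbb* has 11 filled points above it, and the tallest points of *Id2* and *Id3* are open.

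The TGF-beta ligand genes changed less in number. *Tgfb1* had 4 parent and 3 ΔSRR2–18 intervals, and its TSS level was 20.4 and 28.9. *Tgfb2* had 6 and 8, with TSS levels of 71.7 and 55.1. *Tgfb3* had 3 and 5, and its TSS level went from 74.2 to 125.7, a log2 ratio of 0.999. A pair of deletion-only intervals downstream of *Tgfb3*, in introns of the neighbouring gene *Ttll5*, had levels of 82.8 and 81.1. The 230 shared loci within 5 Mb of *Tgfb3* had a median log2 ratio of 0.74, against −0.23 to 0.25 around the other 39 genes, and by fold enrichment the ratio at the *Tgfb3* start was −0.08. The part of this regional shift in the *Tgfb3* values was not tested.

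All 12 receptor genes had start-site intervals in both lists, and for 11 of them, all but *Acvrl1*, the intervals overlapped. Type I receptor genes had 42 parent and 52 ΔSRR2–18 intervals, of which 23 (54.8%) and 34 (65.4%) were specific. Type II receptor genes with the co-receptor gene had 28 in each list, 16 of them (57.1%) specific in each. Of all intervals near genes, 45.0% in the parent list and 53.0% in the ΔSRR2–18 list were specific. For *Tgfbr1*, the type I receptor for TGF-beta, the TSS level was the highest of the set in both lists, at 177 in parent and 175 in ΔSRR2–18 cells (log2 0.22, 0.16 to 0.28). *Bmpr2*, the type II receptor for BMPs, had TSS levels of 121 and 72.8 (−0.49, −0.58 to −0.41), and *Acvr2b*, an activin type II receptor, had 119 and 65.0 (−0.63, −0.72 to −0.54). The type I receptors for BMPs showed the same order, with 65.5 and 42.1 for *Bmpr1a*, 106 and 60.2 for *Bmpr1b*, and 93.9 and 52.8 for *Acvr1*. The activin receptors *Acvr1b* (89.5 and 59.8) and *Acvr2a* (74.5 and 38.9) and the co-receptor *Tgfbr3* (83.7 and 57.9) also had their higher TSS level in parent cells. The summit of the *Acvr1* start-site interval lies nearer to the start of *Upp2*, so that it is shown here without being a member. Of the 11 receptor genes with a shared start-site locus, 9 lay below the median of all shared loci and 2 above it. Among all 36 genes of the set with such a locus, 20 lay below that median and 16 above. The same split over the start sites of all genes was not computed. By fold enrichment, 3 of the 5 type I genes compared on that scale were above the median of all shared loci. All 5 of 5 type II and co-receptor genes were below it.

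*Acvrl1*, the ALK1 receptor known from blood vessels, was the single gene whose start-site intervals in the 2 lists did not overlap, at levels of 8.08 in parent and 16.4 in ΔSRR2–18 cells. Specific intervals away from the start sites were strong at *Tgfbr2*, the type II receptor for TGF-beta. Parent-only intervals in its intron, 36.3 kb from the start, and 38.1 kb upstream had levels of 122 and 81.6, and the second ranked in the top 1.43% of the parent list by fold enrichment. *Tgfbr2* nevertheless had 11 parent and 10 ΔSRR2–18 intervals, and its TSS levels of 92.0 and 84.9 were close. Within the same gene, a shared intronic locus 22.2 kb from the start went from 33.2 to 89.5 (log2 1.67) and another, 28.6 kb from the start, from 26.9 to 8.49 (−1.42). *Bmpr2* had 8 parent and 4 ΔSRR2–18 intervals, with a parent-only interval of level 66.5 in its intron. *Acvr1* had the largest surplus among the receptors in the other direction, with 5 and 12 intervals. Within 5 Mb of *Acvr1*, other intervals numbered 211 in the parent list and 385 in the ΔSRR2–18 list. The part of this regional difference in the *Acvr1* counts was not tested. The numbers in parent and ΔSRR2–18 cells were 9 and 8 for *Bmpr1a*, 10 and 11 for *Bmpr1b*, 7 and 6 for *Acvr1b*, 2 and 4 for *Acvr1c*, 4 and 5 for *Acvrl1*, 5 and 6 for *Tgfbr1*, 3 and 4 for *Acvr2a*, 2 and 2 for *Acvr2b*, and 4 and 8 for *Tgfbr3*.

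**Figure D4:**
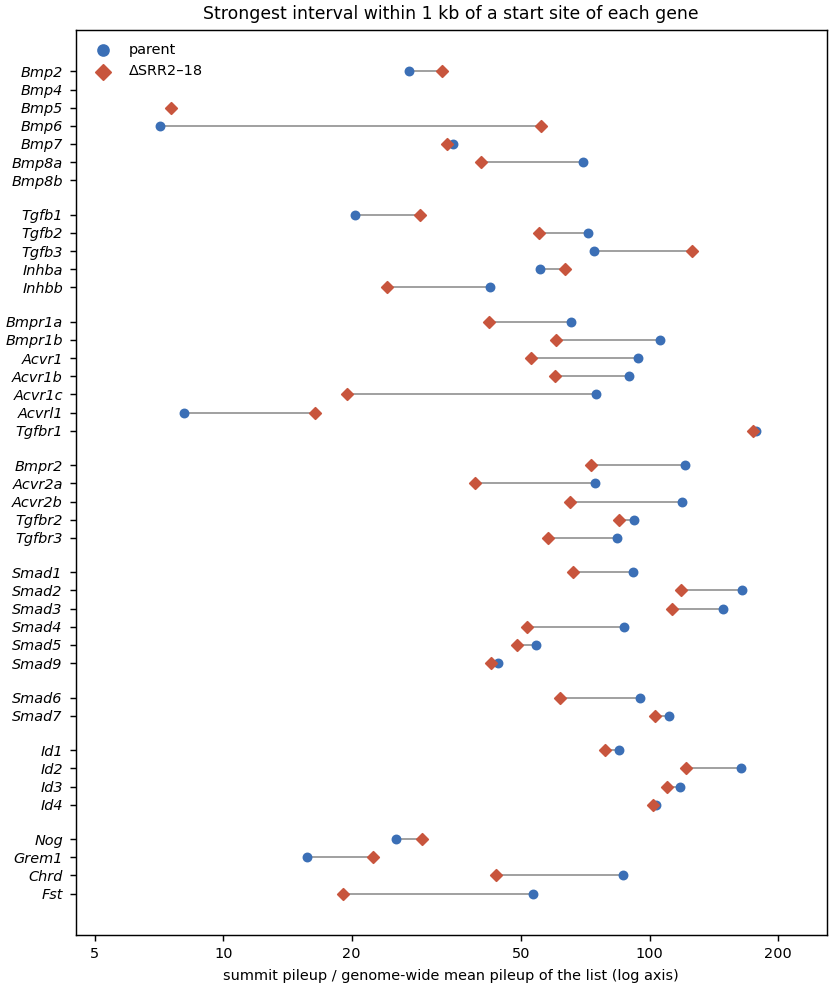
Level of the strongest interval within 1 kb of a start site of each gene (x axis, log scale, multiples of the genome-wide mean pileup) in parent (circles) and ΔSRR2–18 cells (diamonds). *Bmp4* and *Bmp8b* have no point, *Bmp5* has only a ΔSRR2–18 point at 7.53, *Bmp6* spans 7.11 to 55.7, *Acvr1c* 74.7 to 19.5, and the points of *Id1*, *Id3* and *Id4* nearly coincide.

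The *Smad* genes carried many intervals and few changes at their start sites. Receptor and common *Smad* genes had 40 parent and 46 ΔSRR2–18 intervals. Of these, 19 (47.5%) and 23 (50%) were specific, near the 45.0% and 53.0% of all intervals near genes. The TSS levels were 165 and 118 for *Smad2*, 149 and 113 for *Smad3*, 91.5 and 66.2 for *Smad1*, 87.3 and 51.5 for *Smad4*, 54.2 and 48.8 for *Smad5*, and 44.1 and 42.4 for *Smad9*, in parent and ΔSRR2–18 cells respectively. Their log2 ratios lay between −0.52 and 0.18. *Smad2* and *Smad3*, which act for activins and TGF-beta, had more intervals in the deletion, 3 and 6 for *Smad2* and 10 and 16 for *Smad3*. Of the genes that act for BMPs, *Smad1* had 9 and 5 and *Smad9* had 2 and 2, and *Smad4*, the common partner, had 6 and 6. *Smad5* had 10 and 11, and 3 of its 7 shared loci were at least 2-fold lower in the deletion (background 10.2%), 1 of which had the opposite sign by fold enrichment.

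At the inhibitory genes *Smad6* and *Smad7*, 4 of the 11 shared loci were at least 2-fold higher in ΔSRR2–18 cells and 0 were at least 2-fold lower, beside 15.4% and 10.2% of all shared loci near genes. With 11 loci at 2 genes, these counts describe these loci only. The 4 had log2 ratios from 1.29 to 1.97 and lay 5.74 kb into *Smad7*, 47.7 kb upstream of it, and 28.2 and 45.9 kb upstream of *Smad6*, and each was also above 0 by fold enrichment. Their start sites did not share this: the TSS level was 94.7 in parent and 61.5 in ΔSRR2–18 cells for *Smad6*, and 111 and 103 for *Smad7*. In all, *Smad6* had 9 and 7 intervals and *Smad7* had 10 and 14. The strongest deletion-only interval of the whole set lay in the *Smad7* gene, 16.4 kb from its start, with a level of 97.9, above 91.6% of the parent list.

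The *Id* genes had the most shared chromatin. Only 5 of their 24 parent intervals (20.8%) and 11 of their 30 ΔSRR2–18 intervals (36.7%) were specific. Over all intervals near genes these shares were 45.0% and 53.0%. All 4 start sites were occupied in both lists. The TSS levels in parent and ΔSRR2–18 cells were 164 and 122 for *Id2*, 118 and 110 for *Id3*, 104 and 102 for *Id4*, and 84.6 and 78.6 for *Id1*, so that the order of the genes was the same in both lists. Their log2 ratios ran from −0.19 to 0.22, with 3 above 0, whereas without centring on the median of all loci all 4 were below 0, and by fold enrichment 2 were above and 2 below. The *Id1* value belongs to an interval with its summit 1.05 kb upstream, and the weaker interval at the start itself had levels of 60.8 and 58.2. In the ΔSRR2–18 list the start-site intervals of these genes ranked in the top 1.93% to 6.83% by level. By fold enrichment they ranked lower, from the top 23.6% for *Id4* to the top 79.3% for *Id3*.

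Around these stable start sites the *Id* genes differed. At *Id3*, the locus 26.3 kb upstream rose and the locus 8.32 kb upstream fell, as given above, while the strongest upstream locus, 2.97 kb from the start, had levels of 161 and 154. *Id3* had 9 parent and 8 ΔSRR2–18 intervals. A parent-only interval 38.5 kb upstream had a level of 92.9, above 95.5% of the ΔSRR2–18 list, and its printed sequence holds a SOX and an E-box match. *Id2* had 4 parent and 9 ΔSRR2–18 intervals, and *Id4* had 3 and 6; neither had a parent-only one. The 8 deletion-only intervals of these genes were weak, with levels from 6.26 to 13.8 beside start sites above 100. *Id1* had 8 and 7 intervals, and its loci 12.2 kb upstream, lower in ΔSRR2–18 cells, and 6.45 kb upstream, with levels of 12.2 and 22, moved in opposite directions, although the second was at −0.20 by fold enrichment.

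The genes of the extracellular antagonists had more intervals in the ΔSRR2–18 list. Of their 9 parent intervals, 2 were specific (22.2%, beside 45.0% of all parent intervals near genes). Of their 17 ΔSRR2–18 intervals, 10 were specific (58.8%, beside 53.0% of all ΔSRR2–18 intervals near genes). Of these 10, *Fst* had 5, *Grem1* had 4 and *Nog* had 1. *Nog* (noggin, a BMP antagonist) had TSS levels of 25.4 and 29.2. A deletion-only interval 4.61 kb from its start had a level of 67.8, and the adjoining shared locus went from 12.5 to 27.5 (log2 1.38, 1.20 to 1.56). By fold enrichment that shared locus was at 0.08. *Grem1* (gremlin) had 1 parent and 5 ΔSRR2–18 intervals, the strongest of them 6.51 kb upstream with a level of 64.9, and its TSS levels were 15.7 and 22.4. By fold enrichment the TSS loci of all 4 antagonist genes were below the median of all loci, *Nog* at −0.82 among them. *Chrd* (chordin) had 1 interval in each list, at 86.7 and 43.7. *Fst*, whose product follistatin binds activins, had 4 and 7 intervals, in a region with 290 and 499 other intervals within 5 Mb. Its promoter, however, fell from 53.3 to 19.1 (log2 −1.24, −1.41 to −1.08), which with *Acvr1c* made 2 of the 36 genes with a shared start-site locus at least 2-fold lower, against 1, *Bmp6*, at least 2-fold higher.

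Over the 35 of these start-site loci that were members, 16 lay above and 19 below the median of all shared loci. Without centring the split was 7 and 28, and by fold enrichment it was 11 and 24. Shared loci of the set whose summits lay at promoters of any gene had a median log2 ratio of −0.14 (41 loci, 2 higher and 3 lower by 2-fold). The other shared loci of the set had 0.17 (64 loci, 12 higher and 8 lower). Over all shared loci near genes the shares were 15.4% higher and 10.2% lower, and their split by place was not computed.

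A list of 61 other genes of the pathway, such as further ligands, latent TGF-beta binding proteins, SMAD cofactors and known targets, gave 231 parent and 294 ΔSRR2–18 intervals. Of these, 106 (45.9%) and 170 (57.8%) were specific, beside backgrounds of 45.0% and 53.0%. Of their 121 shared loci, 33 (27.3%) were at least 2-fold higher in ΔSRR2–18 cells and 11 (9.09%) at least 2-fold lower, beside 15.4% and 10.2%, and the median log2 ratio was 0.15. More intervals in the ΔSRR2–18 list were found for 28 of the 58 genes with any interval, and fewer for 16. *Msx1* and *Msx2*, known BMP targets, had 1 and 4 parent intervals and 5 and 9 ΔSRR2–18 intervals. *Thbs1*, a known TGF-beta target, had 5 parent and 11 ΔSRR2–18 intervals. None of these 3 genes had a parent-only interval, and they were picked out after their counts were seen. Other genes of the list did not show this gain: *Bambi* had 6 and 6 intervals and *Skil* 6 and 4. *Mstn*, which encodes myostatin, had 4 and 0, and *Rgma* had 21 and 14.

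Motifs around the summits followed the pattern of the whole lists. An AP-1 match within 100 bp of the strongest summit was present in 73 of 145 deletion-only intervals of the set (50.3%, Wilson 95% interval 42.3 to 58.4) and in 50.8% of all deletion-only intervals near genes. Of the 100 parent-only intervals of the set, 1 had it, beside 4.18% of all parent-only intervals. The deletion-only intervals with a match had a median level of 17.6, those without one 13.5. By role, matches were present in 20 of 34 intervals at type I receptor genes, 11 of 22 at BMP ligand genes, 6 of 11 at *Id* genes and 5 of 16 at type II receptor and co-receptor genes. They were also present in 13 of 23 at receptor and common *Smad* genes and 5 of 9 at inhibitory *Smad* genes. Antagonist genes had 6 of 10, and TGF-beta and activin ligand genes 7 of 20. A SOX match was seen at 20 parent-only intervals (20.0%, 13.3 to 28.9), beside 15.2% of all, and at 17 deletion-only intervals (11.7%, 7.45 to 18.0), beside 10.6% of all. Both SOX intervals include the share of all intervals near genes. E-box matches were present in 38.0% of the parent-only intervals of the set (29.1 to 47.8), beside 29.6% of all, and in 19.3% of the deletion-only ones (13.7 to 26.5), beside 16.1% of all.

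The SMAD GC element was found mainly in shared chromatin. In intervals of the set that overlapped the other list, it was present in 25 of 107 in parent (23.4%, 16.4 to 32.2) and 25 of 108 in ΔSRR2–18 cells (23.1%, 16.2 to 31.9), against 12.4% and 11.8% of all overlapping intervals near genes. The *Id* genes held 12 of the 25 in parent and 11 of the 25 in ΔSRR2–18 cells. It was found at 5 parent-only intervals (5.00%, beside 2.80% of all) and at 3 deletion-only intervals (2.07%, beside 1.83% of all). The overlapping parent intervals of the set had a mean GC content of 62.7%, those of all genes 58.8%, and the part of base composition in this share was not tested. No specific interval of the set held the SMAD palindrome, 0 of 145 in the deletion and 0 of 100 in the parent. The Wilson interval allows a share of up to 2.58% and 3.70%. The palindrome was rare near all genes too, at 0.25% of deletion-only and 0.17% of parent-only intervals. A count of 0 therefore does not set these genes apart.

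**Figure D5:**
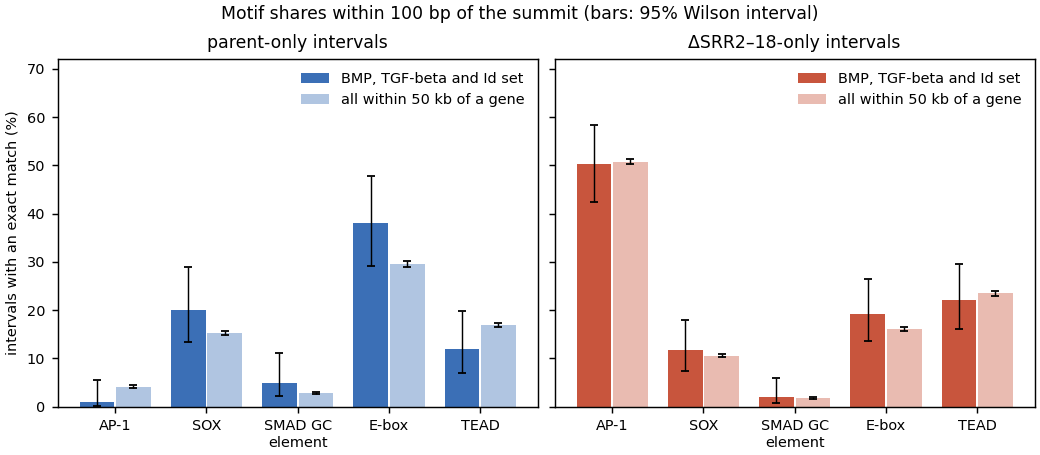
Share of intervals (y axis, percent) with an exact match to each motif within 100 bp of the strongest summit, for parent-only (left) and ΔSRR2–18-only intervals (right), in the set (dark) and in all intervals within 50 kb of a gene (pale), with 95% Wilson intervals. The AP-1 share is 1.00% in parent-only and 50.3% in ΔSRR2–18-only intervals of the set, and the pale bars follow the same order.

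The 50 kb limit separated intervals with like values. Just inside it were intervals 49239 bp from *Smad1* (level 96.9 in parent), 49516 bp from *Fst* (10.9 in ΔSRR2–18) and 49555 bp from *Smad7* (4.33 in parent). Just outside it were intervals 50330 bp from *Tgfb2* (106 in parent), 50603 bp from *Bmpr1b* (10.3 in ΔSRR2–18) and 51398 bp from *Tgfbr3* (41.3 in parent).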

How the data were processed

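The authors ran the ENCODE pipeline for ATAC-seq (1.10.0) with mm10 as the genome. MACS2 peaks of 3 cultures per genotype were merged there into a conservative and an optimal list by IDR, a measure of reproducibility. For each peak they deposited an IDR score, a ratio (fold enrichment of the summit over local background), −log10 p-values and q-values (the latter not used), and a summit offset. The conservative lists, which the study also used, gave the main values, and they carry no depth of the single cultures because they are pooled; the labels give a range of reads per culture.

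Each distinct interval was assigned by its strongest summit to the nearest protein-coding TSS (GENCODE M21 basic annotation). Summit pileups were solved from the deposited fold and −log10 p under the Poisson model of MACS2 (pseudocount 1); whole reads (within 0.05) resulted for 99.9993% of parent and 100% of ΔSRR2–18 summits. Loci were overlapping intervals of both lists (at least 1 bp). Intervals of ratios are Clopper–Pearson, those of shares Wilson, both at 95% and for counting error only. Promoter means a summit within 1 kb of any annotated start, except that a start-site interval is the strongest one whose span reaches within 1 kb of a start of the gene itself. Read recovery, overlaps and motif scans were tested on simulated data. Analyses used Python 3.11.15, pandas 2.3.3 and scipy 1.17.1.

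Every start-site interval was named, with the 5 strongest intervals per genotype absent from both lists of the other and the 5 shared loci with the highest and the lowest ratio; any other interval in the text was picked with its values known. The member genes, the other gene lists and the motifs were chosen with earlier results of these data known. Alternatives were the optimal lists, an IDR score of at least 830, 10 kb, stricter overlap, equal list sizes or lowest level, no centring, fold enrichment, summits within 100 bp, a 50 bp motif window and motifs outside promoters; leaving out distal chromosome 12 was added after the data were seen.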

Additional observations from a re-analysis of the deposited data

How the results depend on the processing

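Of 63 values computed under alternatives, 50 stayed within their interval or within 1.5 times the main count and 13 moved further. With genes at most 10 kb away, the set by construction shrank to 101 parent and 109 ΔSRR2–18 intervals, 36 and 44 of them specific, with 6 shared loci higher and 6 lower and SOX matches in 11.1% of parent-only intervals. With an IDR score of at least 830, 7 loci were at least 2-fold lower, and with summits within 100 bp also 7. By fold enrichment, 5 were higher and 7 lower; the cause was not tested. A motif window of 50 bp, which searches fewer bases, gave AP-1 matches in 40.7% of deletion-only and SOX matches in 13.0% of parent-only intervals. The median of the shared loci changed sign without centring (−0.12, with 13 loci higher and 14 lower) and by fold enrichment (−0.06). Equal list sizes turned the order of the specific intervals, to 135 in parent and 98 in ΔSRR2–18 cells, whereas an equal lowest level kept it, with 74 and 110. Without distal chromosome 12 the set had 204 and 248 intervals, 14 loci higher and 11 lower. No paired analysis was possible because each deposited list pools the 3 cultures of a genotype, and for the same reason no culture could be left out.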
